A study of Homo sapiens with 2 samples.

Results

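Keratins are the intermediate filament proteins of epithelial cells. A filament is built from pairs of a type I (acidic) and a type II (basic) keratin, so that a cell needs at least 1 gene of each type, and the choice of partners changes with the kind of epithelium and its state of differentiation. KRT8 and KRT18, with KRT19 and KRT20, make up the filaments of simple epithelia such as that of the colon, while KRT5, KRT14 and KRT15 belong to the basal layer of stratified epithelia, and a further set of genes serves hair and the root sheath of the hair follicle. Keratin genes lie in a type II cluster, which also holds the type I gene KRT18, and in a type I cluster, on chromosomes 12 and 17.

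The keratin genes were taken as all symbols of the form KRT followed by a number, with or without a letter, among the probe sets that the array annotation ties to a single gene. The rule found 55 keratin genes with 691 probe sets, of 16920 genes on the array. Of these, 52 had at least 3 probe sets, against 16253 genes in all, and only these entered counts and medians. KRT19 and KRT6A had 2 probe sets each and KRT6C had 1.

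Their transcripts were measured in HCT116-DKO cells, in which both DNMT1 and DNMT3B, the maintenance DNA methyltransferase and a de novo DNA methyltransferase, are disrupted, and in HCT116-WT cells, the human colorectal cancer line from which HCT116-DKO was made. HCT116-DKO was the DKO1 line, a single derived line, so that the disruptions and whatever else sets this line apart cannot be told apart. The medium of both lines was McCoy's 5A, with fetal bovine serum (10%), and neither line was treated. Total RNA of each was hybridized to 1 Affymetrix human exon array, so that 2 arrays give the 1 comparison made here. With 1 array per line there is no replicate error and no test, and the spread given beside a value is that over the probe sets of a gene in the same pair of arrays. In such bulk RNA, fewer cells expressing a gene and less of its RNA per cell cannot be told apart.

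Values are log2 signals and differences are HCT116-DKO minus HCT116-WT. A gene level is the median polish over its probe sets. The background of an array was set from 286 olfactory receptor genes, a family mostly silent in other tissues, as their 95th percentile, which gave 7.30 in HCT116-DKO and 7.08 in HCT116-WT. A gene was called changed with at least 3 probe sets, a log2 difference of at least 1, at least 75% of its probe sets in that direction and, on the brighter of the arrays, a level above background. The targeted genes went with the labels. DNMT1 was at 9.36 in HCT116-DKO and 10.63 in HCT116-WT, 2.40-fold lower, with all 50 probe sets lower. DNMT3B was at 6.91 in HCT116-DKO and 8.32 in HCT116-WT, at least 2.03-fold lower. Of 15 measured markers of colon epithelium other than keratins, 9 were above background in both arrays, among them EPCAM (11.43 in HCT116-DKO and 11.81 in HCT116-WT), and 6 were above it in neither, among them VIL1 and CDH17. None of the 15 changed, and the widest differences above background were those of the tight junction genes CLDN4 (10.27 in HCT116-DKO and 9.36 in HCT116-WT) and CLDN3 (10.11 in HCT116-DKO and 9.30 in HCT116-WT).

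Keratin 7 and keratin 15 rose in HCT116-DKO cells, and no keratin gene fell. These were 2 of 52 keratin genes, or 3.85%, where 2.66% of all genes tested rose and 0.535% fell, so the share that rose was near that of the array as a whole. KRT7, the simple-epithelial type II keratin of many glands and ducts, was at 9.50 in HCT116-DKO and 7.62 in HCT116-WT. KRT15, a type I keratin of basal keratinocytes and hair follicle stem cells, was at 8.09 in HCT116-DKO and 6.84 in HCT116-WT. The median log2 difference of the 52 genes was 0.066, beside 0.02 over all genes, and 0.046 without KRT7 and KRT15. After quantile normalization of the arrays it was -0.069, beside -0.066 over all genes. After median centring it was -0.024, beside -0.068 over all genes, so its sign is not settled. Differences were small for most: 47 genes lay between -0.34 and 0.43. Of all 52 genes, 31 were positive and 20 negative.

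**Figure D1:**
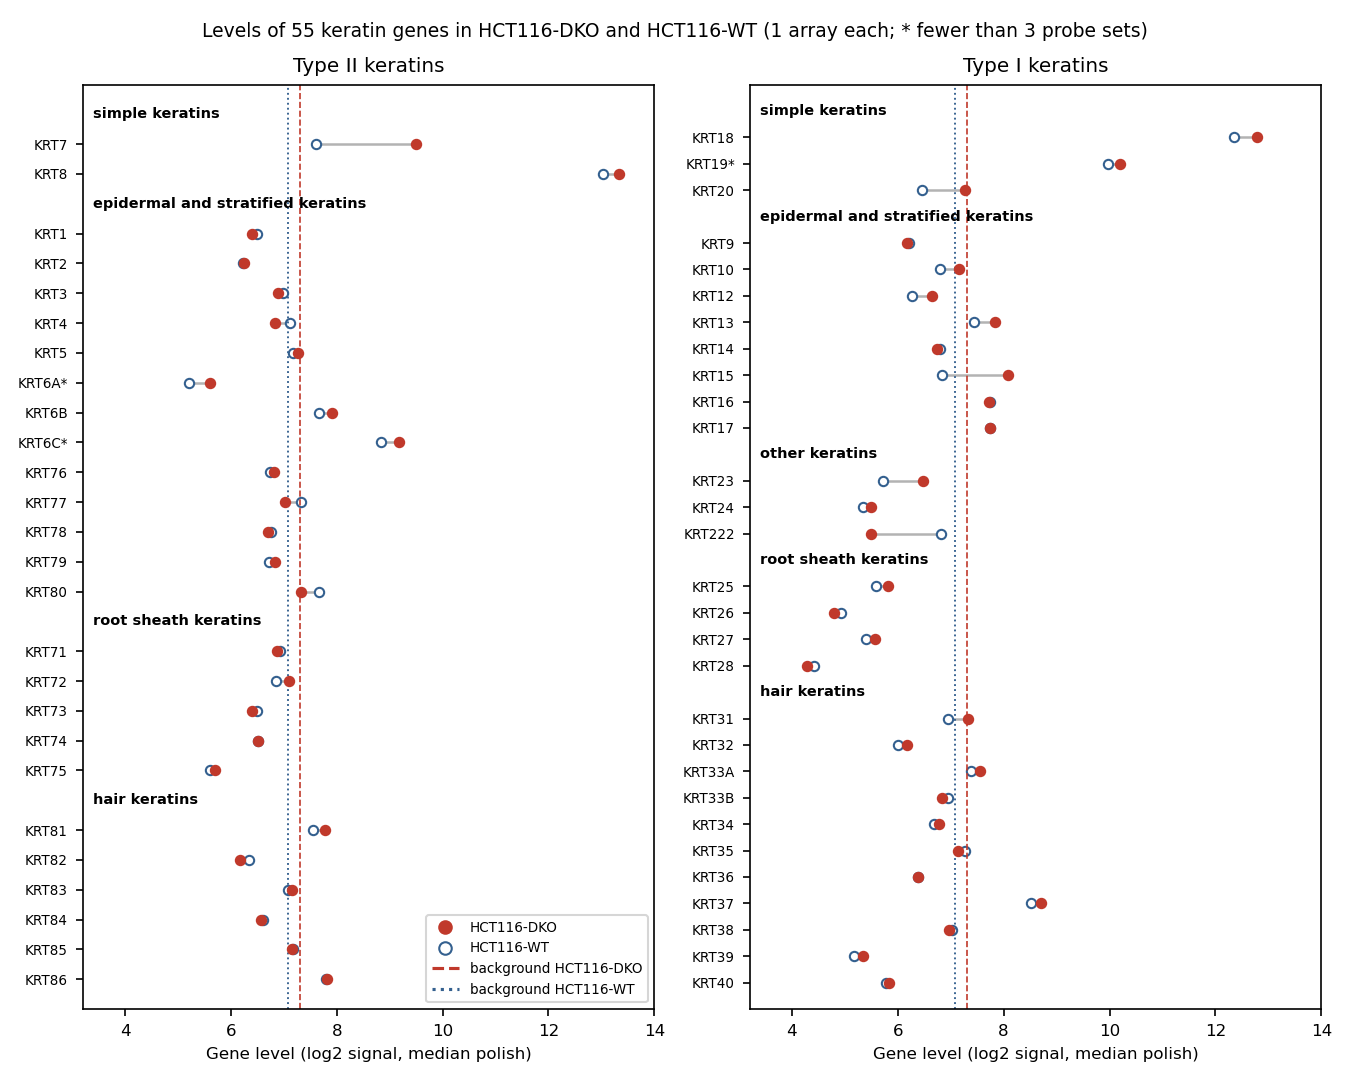
Gene level (log2 signal, horizontal axis) of the 55 keratin genes in HCT116-DKO (filled red) and HCT116-WT (open blue), 1 array each, grouped by type and by the epithelium in which the genes are best known; vertical lines mark each array's background. The wide gaps are those of KRT7, KRT15, KRT20, KRT23 and KRT222, and of these only KRT7 lies above background in both arrays.

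At least 75% of probe sets were higher in HCT116-DKO for 10 keratin genes (19.2%, beside 27% of all genes): KRT7, KRT8, KRT10, KRT13, KRT15, KRT18, KRT20, KRT23, KRT24 and KRT81. They were lower for KRT80 and KRT222 (3.85%, beside 20.3% of all genes). Fewer keratin genes than genes overall were above background: 14 of 52 (26.9%) in HCT116-DKO, beside 68.7% of all genes, and 18 (34.6%) in HCT116-WT, beside 70.2% of all genes. In neither array above background were 32 keratin genes (61.5%, beside 27.5% of all genes), and for these the sign of a difference says little, since 18 were positive and 14 negative.

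KRT7 had the highest difference of the family, 1.88 ± 1.53 (SD over 16 probe sets), a 3.68-fold rise. Of its 16 probe sets, 15 were higher in HCT116-DKO, and all 16 exceeded background in HCT116-DKO, 12 in HCT116-WT. The rise was uneven along the gene. At the probe sets in places 4 to 6 by ID, signals were 10.90, 11.09 and 11.50 in HCT116-DKO and 10.77, 10.77 and 11.13 in HCT116-WT, so that the arrays were almost level there, with a median difference of 0.32 (1.25-fold). At the other 13, signals ran from 7.86 to 11.58 in HCT116-DKO and from 4.98 to 9.70 in HCT116-WT, with a median difference of 2.03 (4.07-fold) and 12 of 13 differing by at least 1. The split at places 4 to 6 was made after the values were seen. The highest difference, 5.49, came from the probe set in place 9, which read 10.47 in HCT116-DKO and 4.98 in HCT116-WT, below background. Over the 12 probe sets above background in both arrays, the median difference was 1.40 (2.65-fold), and 11 were higher in HCT116-DKO. In RefSeq, the pseudogene KRT87P and the antisense RNA KRT7-AS overlap KRT7, and their part in the signal was not tested.

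KRT15 differed by 1.25 ± 1.35 (SD over 15 probe sets), at least 2.01-fold, since its level in HCT116-WT was not above background. Higher in HCT116-DKO were 14 of 15 probe sets, and 10 exceeded background in HCT116-DKO, 5 in HCT116-WT. The 3 highest differences, 4.09, 4.06 and 3.43, came from probe sets that read 6.84, 6.77 and 8.15 in HCT116-DKO and 2.75, 2.71 and 4.71 in HCT116-WT. All 3 were below background in HCT116-WT, and the first and second of them were below it in HCT116-DKO too. The brightest probe set was level, at 11.83 in HCT116-DKO and 11.73 in HCT116-WT. Over the 5 probe sets above background in both arrays, differences ran from -0.13 to 1.53 with a median of 0.64 (1.56-fold), so the size of the rise depends on which probe sets are read. With the odd-numbered probe sets alone, KRT15 was at 6.01 in HCT116-DKO, not above background, and was no longer called. Nor was it with background at the 99th percentile, or with a threshold of 1.5.

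**Figure D2:**
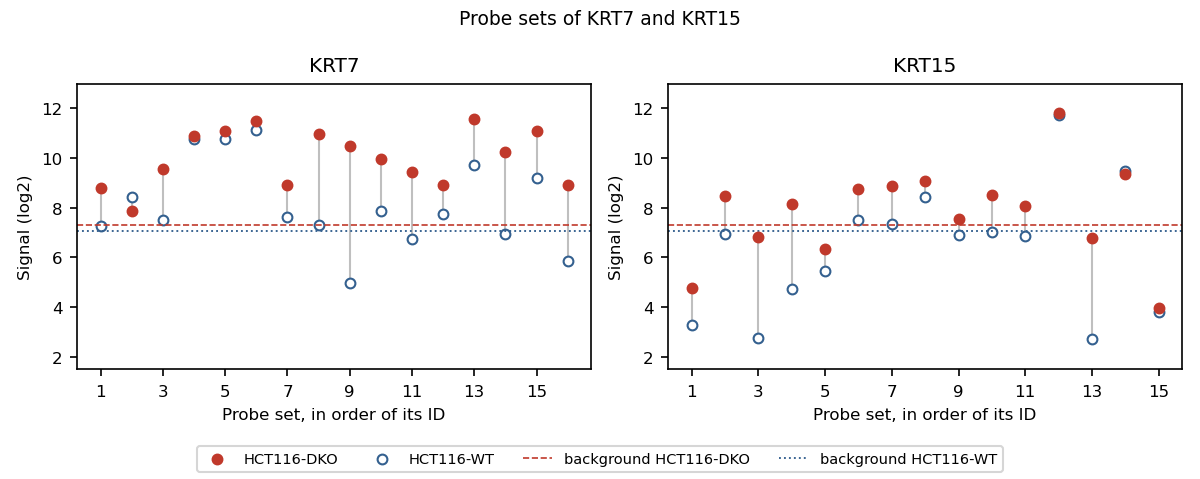
Signal (log2) of every probe set of KRT7 (16) and KRT15 (15) in HCT116-DKO (filled red) and HCT116-WT (open blue), in order of probe set ID, with each array's background as a horizontal line. KRT7 is higher in HCT116-DKO at 15 of 16 probe sets but nearly level at places 4 to 6, and KRT15 shows its widest gaps where HCT116-WT is below background.

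The main pair of the colon, KRT8 (type II) and KRT18 (type I), was above background at every probe set in both arrays and changed little. KRT8 was at 13.33 in HCT116-DKO and 13.02 in HCT116-WT, a difference of 0.31 ± 0.12 (SD over 18 probe sets), 1.24-fold, with 18 of 18 probe sets higher in HCT116-DKO. KRT18 was at 12.79 in HCT116-DKO and 12.36 in HCT116-WT, a difference of 0.43 ± 0.20 (SD over 16 probe sets), 1.35-fold, with 15 of 16 higher. Both partners thus differed in the same direction and by less than the size that counts as a change.

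KRT19, the smallest type I keratin, was hardly covered by probe sets of its own. Its first read 11.55 in HCT116-DKO and 11.14 in HCT116-WT, and the other 8.83 in HCT116-DKO and 8.82 in HCT116-WT. A further 8 probe sets were annotated to both KRT19 and JUP, a gene that flanks the cluster of chromosome 17. JUP encodes plakoglobin, a desmosome plaque protein. Those 8 ran from 10.78 to 13.13 in HCT116-DKO and from 10.01 to 12.48 in HCT116-WT, and all were higher in HCT116-DKO, by 0.65 to 1.01 (median 0.75, 1.68-fold). The 24 probe sets of JUP alone differed by -0.54 to 0.51, with a median of 0.27, and the 2 of KRT19 alone by 0.40 and 0.02. The shared probe sets thus lay above all of those of either gene alone. By ID, the shared probe sets lie next to those of KRT19 and apart from those of JUP alone. Which of the pair each shared probe set measures was not tested.

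**Figure D3:**
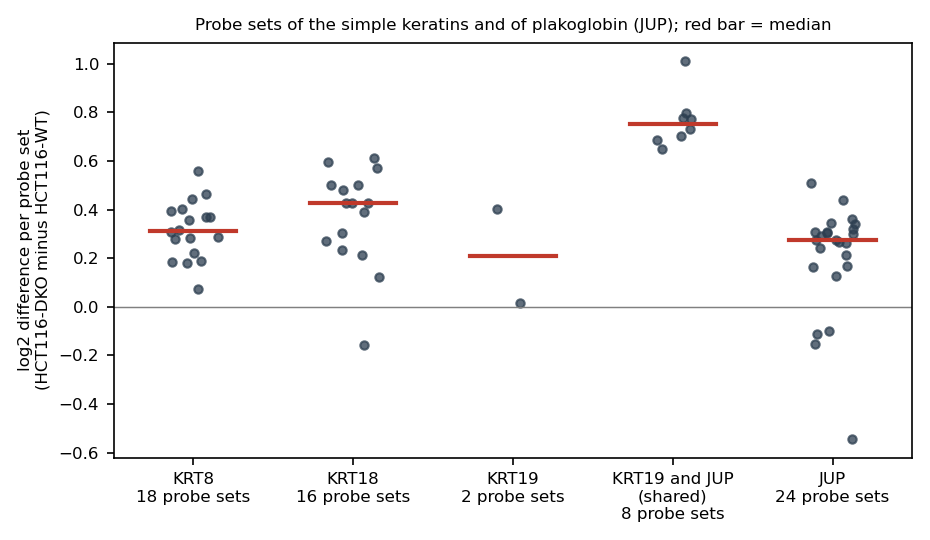
log2 difference (HCT116-DKO minus HCT116-WT) of each probe set of KRT8, KRT18, KRT19, of the 8 probe sets that KRT19 shares with JUP, and of JUP alone; points are probe sets, red bars medians. The shared probe sets, 0.65 to 1.01, lie above all 24 of JUP alone and above both of KRT19 alone. KRT8 and KRT18 have medians of 0.31 and 0.43.

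KRT20, the type I keratin of differentiated intestinal epithelium, stood at 7.26 in HCT116-DKO and 6.46 in HCT116-WT, above background in neither. Its difference was 0.80 ± 0.64 (SD over 12 probe sets) with 11 of 12 higher in HCT116-DKO, so it missed both the size and the background that a change requires. The difference was 0.38 with the even-numbered probe sets alone and 0.22 with levels below background set to background. The 2 probe sets above background in both arrays read 9.10 and 8.50 in HCT116-DKO and 7.96 and 7.56 in HCT116-WT. KRT23, a further type I keratin, stood at 6.47 in HCT116-DKO and 5.71 in HCT116-WT. Its 13 probe sets differed by -0.49 to 4.48, and the highest came from a single probe set that read 8.33 in HCT116-DKO and 3.85 in HCT116-WT. KRT20 and KRT23 are neighbours on chromosome 17.

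KRT222, a short type I member of the family, had the lowest difference, -1.31 ± 1.16 (SD over 12 probe sets), at 5.50 in HCT116-DKO and 6.81 in HCT116-WT, with 10 of 12 probe sets lower. Neither level was above background, so it did not count as fallen. It did with background at the 90th percentile and with no demand on background. It also did with bright probe sets only, those above background in at least 1 array. For KRT222, 6 of these were above background in HCT116-WT only, so that setting favours a fall. With shared probe sets kept, the difference was -0.44. Of its 12 probe sets, 1 was above background in HCT116-DKO and 7 were in HCT116-WT. The brightest of the 7 was also the one above background in both arrays, at 8.60 in HCT116-DKO and 9.20 in HCT116-WT. A further 6 probe sets shared between KRT222 and its neighbour SMARCE1, a chromatin remodelling subunit, were lower in HCT116-DKO by 0.09 to 0.28, and SMARCE1 alone stood at 10.64 in HCT116-DKO and 11.08 in HCT116-WT. KRT80, a type II keratin of many epithelia, was at 7.33 in HCT116-DKO and 7.66 in HCT116-WT, with 14 of 17 probe sets lower. Its difference of -0.34 was under the size of a change, and over the 9 probe sets above background in both arrays the median was -0.30.

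**Figure D4:**
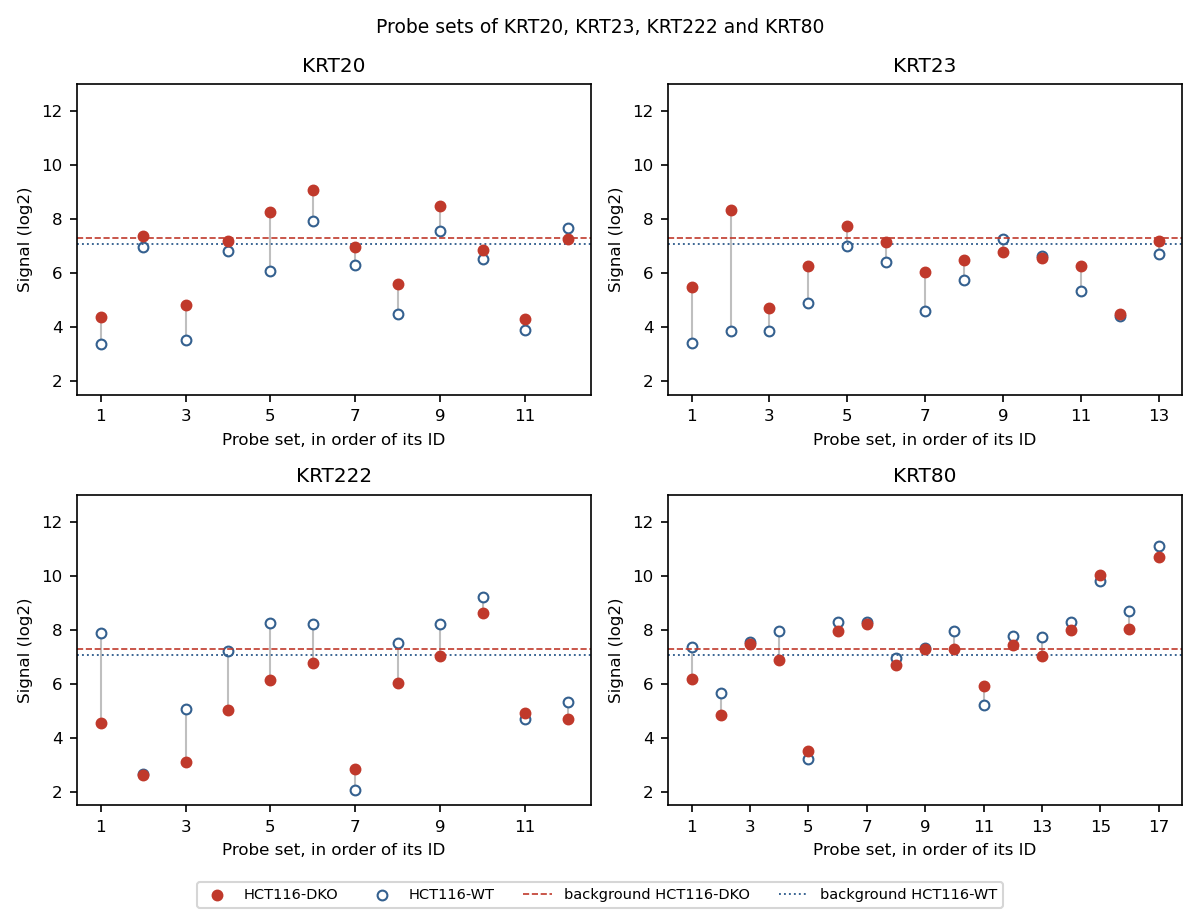
Signal (log2) of every probe set of KRT20 (12), KRT23 (13), KRT222 (12) and KRT80 (17) in HCT116-DKO (filled red) and HCT116-WT (open blue), in order of probe set ID, with each array's background as a horizontal line. KRT20 and KRT23 are higher in HCT116-DKO at 11 probe sets each and KRT222 and KRT80 lower at 10 and 14, mostly at signals near or below background.

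Sequence around the transcription start could be described for the 34 keratin genes with a RefSeq promoter window (assembly GRCh38.p14, 250 bases before to 50 after the start). The 2 windows below show a gene with a difference among the widest of the family and a gene with the most CG dinucleotides, the sites at which DNMT1 and DNMT3B act, and capitals mark each CG. The KRT20 window is chr17:40885193-40885492 and that of KRT79, a type II keratin, is chr12:52834262-52834561, both on the minus strand and printed 5′ to 3′ along the gene.
KRT20: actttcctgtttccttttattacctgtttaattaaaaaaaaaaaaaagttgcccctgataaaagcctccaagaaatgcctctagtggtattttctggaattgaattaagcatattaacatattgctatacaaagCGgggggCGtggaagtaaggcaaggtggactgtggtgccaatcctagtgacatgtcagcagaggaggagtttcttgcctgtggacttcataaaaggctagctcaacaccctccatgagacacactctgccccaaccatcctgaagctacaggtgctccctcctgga
KRT79: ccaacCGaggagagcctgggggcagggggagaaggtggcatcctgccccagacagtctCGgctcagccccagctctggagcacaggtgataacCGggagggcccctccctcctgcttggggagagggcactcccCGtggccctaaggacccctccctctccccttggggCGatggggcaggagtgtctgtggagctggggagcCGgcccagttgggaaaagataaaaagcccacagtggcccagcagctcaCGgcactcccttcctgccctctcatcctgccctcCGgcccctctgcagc
KRT20 has 2 CG and KRT79 has 8. KRT79 stood at 6.83 in HCT116-DKO and 6.71 in HCT116-WT, above background in neither. Over the 34 windows, the number of CG ran from 0 to 8 with a median of 2, beside a median of 14 over all 27305 promoters. All 34 lay below that median, as did 49.9% of all promoters. The letters TATAAA, on either strand anywhere in the window, occurred in 20 of the 34 (58.8%) and in 12% of all promoters. The other 21 keratin genes had no window, among them KRT7 and KRT15. Several above background in both arrays, such as KRT13, KRT17, KRT18 and KRT80, had none either, so the 34 do not stand for these.

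Of the keratins of epidermis and other stratified epithelia, 1 of 19 rose, KRT15, beside 2.66% of all genes. KRT13, a type I keratin of mucosal epithelia, was at 7.83 in HCT116-DKO and 7.43 in HCT116-WT, with 13 of 16 probe sets higher. Its partner KRT4 was at 6.84 in HCT116-DKO and 7.11 in HCT116-WT, so the pair differed in opposite directions, both by under 1. KRT5, the basal type II keratin, was at 7.26 in HCT116-DKO and 7.18 in HCT116-WT, close to background in both. KRT77, an eccrine gland keratin, was at 7.01 in HCT116-DKO and 7.32 in HCT116-WT. KRT4, KRT5 and KRT77 were above background in HCT116-WT only.

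The keratins of wounded and hyperproliferative epidermis were level. KRT16 was at 7.73 in HCT116-DKO and 7.75 in HCT116-WT, and KRT17 was at 7.74 in both. Their type II counterpart KRT6B, with 4 probe sets, was at 7.90 in HCT116-DKO and 7.66 in HCT116-WT, and KRT6C, with 1, read 9.17 in HCT116-DKO and 8.84 in HCT116-WT. KRT6A, KRT6B and KRT6C are near-identical copies, and 41 probe sets were annotated to more than 1 of them. Those 41 differed by -0.66 to 2.46 with a median of 0.12, and 26 were higher in HCT116-DKO, so the values of single KRT6 genes are uncertain.

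KRT10, the type I keratin of differentiating epidermis, shows how a gene level can hide bright probe sets. Its level was 7.15 in HCT116-DKO and 6.80 in HCT116-WT, above background in neither. Yet 7 of its 15 probe sets were above background in both arrays, the brightest at 13.16 in HCT116-DKO and 13.23 in HCT116-WT. Over those 7 the median difference was 0.22 (1.17-fold).

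None of 17 hair keratins and none of 9 root sheath keratins changed. Among hair keratins, KRT81 was at 7.78 in HCT116-DKO and 7.55 in HCT116-WT, with 11 of 13 probe sets higher. KRT86, which overlaps KRT81 in RefSeq, was at 7.82 in HCT116-DKO and 7.79 in HCT116-WT. KRT37, with 3 probe sets, was at 8.70 in HCT116-DKO and 8.52 in HCT116-WT, and KRT33A was at 7.55 in HCT116-DKO and 7.38 in HCT116-WT. These 4 were above background in both arrays, and none differed by more than 0.23. Also above background in both were 33 of 45 genes for keratin-associated proteins of hair, beside 10782 of all 16253 genes. Whether a level above background marks expression of such hair genes was not tested. KRT31 was above background in HCT116-DKO only, at 7.32 in HCT116-DKO and 6.95 in HCT116-WT. KRT35 (7.13 in HCT116-DKO and 7.26 in HCT116-WT), KRT83 (7.15 in HCT116-DKO and 7.09 in HCT116-WT) and KRT85 (7.15 in HCT116-DKO and 7.18 in HCT116-WT) were above it in HCT116-WT only. All 9 root sheath keratins were below background in both arrays.

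Among genes with at least 3 probe sets, taken in gene order, no keratin next to KRT7 or KRT15 was called. On chromosome 12, 1 of 25 measured keratins rose, KRT7, and its neighbours were KRT80 at -0.34 and KRT86 at 0.03. The median of this cluster was 0.025, and none of the 10 flanking genes changed. On chromosome 17, 1 of 27 measured keratins rose, KRT15, with a cluster median of 0.16. In the order of these 27, KRT15 stood between KRT13 at 0.40 and KRT9 at -0.05. KRT19, whose probe set IDs fall between those of KRT15 and KRT9, was left out of this order because it had 2 probe sets. Within this cluster lie genes for keratin-associated proteins, which cross-link keratins in the hair shaft, and KRTAP3-1 was at 9.04 in HCT116-DKO and 7.33 in HCT116-WT, 3.28-fold higher at 4 of 4 probe sets. It was the 1 gene of 45 measured keratin-associated protein genes that changed. The counts for both clusters and for these 45 genes stand beside the 2.66% of all genes that rose and the 0.535% that fell. None of the 10 flanking genes of chromosome 17 was called, although IGFBP4, a binding protein of insulin-like growth factors, was at 10.50 in HCT116-DKO and 8.68 in HCT116-WT with 5 of 7 probe sets higher.

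**Figure D5:**
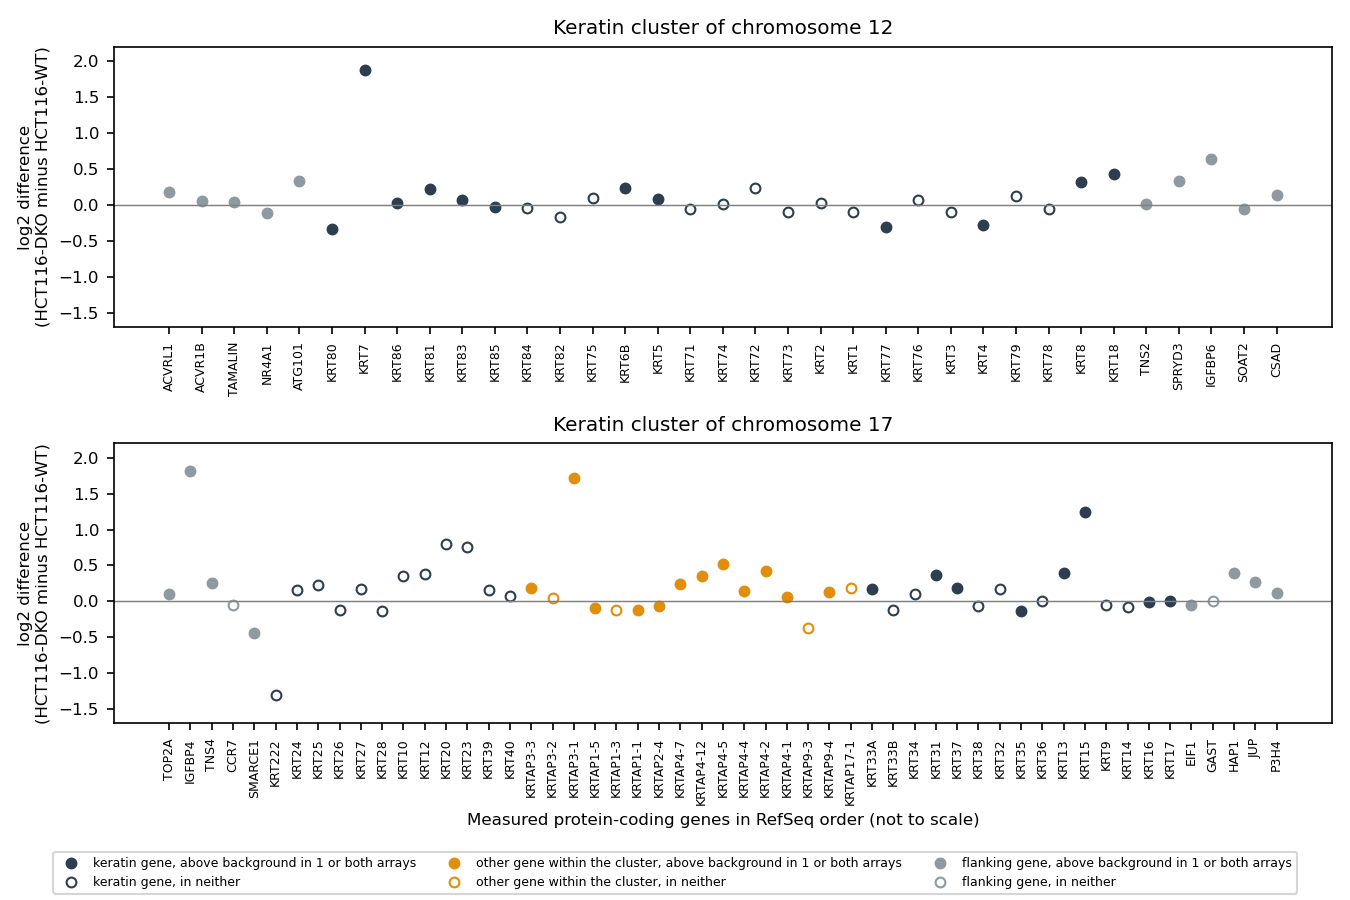
log2 difference (HCT116-DKO minus HCT116-WT, vertical axis) of the measured protein-coding genes of the keratin clusters on chromosomes 12 and 17 with 5 flanking genes on each side, in RefSeq order and not to scale; open points are above background in neither array. Genes with fewer than 3 probe sets, KRT19 among them, are not shown. KRT7 at 1.88 and KRT15 at 1.25 stand above the genes shown next to them. On chromosome 17, KRTAP3-1 at 1.71 and IGFBP4 at 1.81 are higher than KRT15.

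Genes that anchor keratin filaments were read beside the 2.66% of all genes that rose and the 0.535% that fell. Of 19 genes of desmosomes and of linkers to keratin, 14 were above background in both arrays and 1 rose, PKP1, a desmosome plaque protein, at 8.42 in HCT116-DKO and 7.27 in HCT116-WT (2.23-fold). PKP1 was not called with the even-numbered probe sets, with background at the 99th percentile or with a threshold of 1.5. DSP, which ties keratins to the desmosome, was at 10.21 in HCT116-DKO and 10.60 in HCT116-WT. Of 6 genes of hemidesmosomes and their ligand, 2 rose: ITGB4, the integrin subunit that binds the keratin linkers, at 10.73 in HCT116-DKO and 9.58 in HCT116-WT (2.22-fold), and LAMA3, a chain of laminin-332, at 7.68 in HCT116-DKO and 6.46 in HCT116-WT (at least 1.51-fold). Of these 6 genes, 1 rose with bright probe sets only, with the 99th percentile or with levels set to background, and 0 with a threshold of 1.5. None of 12 cornified envelope genes changed. CNFN was the 1 gene of these above background in both arrays, at 7.54 in HCT116-DKO and 7.75 in HCT116-WT, and CSTA, a protease inhibitor, was at 4.83 in HCT116-DKO and 6.95 in HCT116-WT, above background in neither. Of 24 transcription factors with roles in keratin gene control, none rose and 1 fell, MSX2, at 7.10 in HCT116-DKO and 8.80 in HCT116-WT (at least 2.83-fold lower). All 5 probe sets of MSX2 were lower. Its even-numbered probe sets were fewer than 3, so it could not be called with those alone. TFAP2A, a regulator of epidermal keratins, was at 7.16 in HCT116-DKO and 8.15 in HCT116-WT, with 14 of 14 probe sets lower.

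Markers of other cell types were read beside the keratins and the same shares of all genes. Of 10 mesenchyme markers 3 rose: VIM, the intermediate filament protein of mesenchymal cells, at 11.90 in HCT116-DKO and 8.35 in HCT116-WT (11.7-fold), CDH2 at 9.39 in HCT116-DKO and 5.64 in HCT116-WT (at least 4.97-fold) and THY1 at 7.64 in HCT116-DKO and 6.23 in HCT116-WT (at least 1.48-fold). With quantile normalization, the odd-numbered probe sets, the 99th percentile, levels set to background or a threshold of 1.5, 2 of the 10 rose. The median level of the 10 was 7.47 in HCT116-DKO and 7.33 in HCT116-WT. Above background in both arrays were 5 of the 10, among them COL1A1 at 8.64 in both, and 2, DCN and LUM, were above it in neither. Of 5 blood markers 1 rose, LCP1, at 7.48 in HCT116-DKO and 6.30 in HCT116-WT, while PTPRC was below background in both. No blood marker rose with shared probe sets kept, with the 99th percentile, with levels set to background or with a threshold of 1.5. The median level of the 5 was 6.85 in HCT116-DKO and 6.30 in HCT116-WT. None of 5 endothelium markers was above background, with a median level of 5.64 in HCT116-DKO and 5.52 in HCT116-WT. None of 9 markers of stratified epithelium changed, with a median of 6.18 in HCT116-DKO and 6.39 in HCT116-WT. SFN was above background in both arrays, at 10.74 in HCT116-DKO and 10.54 in HCT116-WT, while TP63, the defining factor of basal cells, was at 5.49 in HCT116-DKO and 5.38 in HCT116-WT, below background in both. The part of these genes in the rise of KRT7 and KRT15 was not tested.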

How the data were processed

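Per array, the authors deposited a log2 signal for each exon-level probe set, and the submitters' processing notes name RMA. The study's methods name both Affymetrix Expression Console and RMA in Partek Genomic Suite for exon-level values. Which of the programs gave the deposited ones, and the arrays normalized jointly, were not stated there. Precision is limited by the number of arrays. Probe sets were named through the platform annotation of 2014 and the RefSeq gene table (GRCh38.p14). 1 keratin symbol was updated, and 64 probe sets shared by a keratin and another gene stayed out of gene levels. Calls were made over all genes with Python 3.11.15, numpy 2.4.6 and pandas 2.3.3. The rule was also run on simulated data, with planted differences wider than that of KRT15, in genes well above background in both arrays. Those data held no error between replicate arrays, so they do not test the calls of KRT7 and KRT15. Where the dimmer level was not above background, a fold is a lower bound, taken against the higher of that level and background. No test was run. Named were keratins that changed, that lay above background in an array or that differed by at least 1, and the members of other lists that changed most. The members and lists were chosen with earlier results of these data known. The list of keratin-associated proteins, the grouping of KRT23, KRT24 and KRT222, and the summaries over probe sets above background in both arrays were added after the values were seen. So were the accounts of KRT10, KRT20, KRT23, KRT79, JUP, SMARCE1, IGFBP4, DSP, TFAP2A, CSTA and TP63 and the choice of promoters shown. Alternatives were 14 settings of scale, gene summary, probe sets, background and threshold. A comparison of protein sequences was not run.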

Additional observations from a re-analysis of the deposited data

Results flagged for a closer look

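Probe sets shared by a keratin and another gene were used in no gene level, and 6 of these probe sets were higher in HCT116-DKO by at least 1 on the log2 scale. Of the 6, 2 were above background in HCT116-DKO, and the other 4, 1 of KRT16 and KRT16P1 and 3 of the KRT6 genes, were below background in both arrays. The probe set above background annotated to JUP and KRT19 read 11.68 in HCT116-DKO and 10.67 in HCT116-WT, a log2 difference of 1.01. The one annotated to GUCA1B and KRT13 read 7.62 in HCT116-DKO and 6.28 in HCT116-WT, a difference of 1.34, with the HCT116-WT signal below background. The other probe set of GUCA1B and KRT13 read 10.69 in HCT116-DKO and 10.86 in HCT116-WT, a difference of -0.18.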

How the results depend on the processing

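KRT7 was called under all 14 alternatives, with a log2 difference of 1.63 to 1.89. KRT15 kept a difference of 1.01 to 1.49 but was not called with the odd-numbered probe sets, with background at the 99th percentile or with a threshold of 1.5, each of which left 1 keratin that rose. KRT222 counted as fallen with bright probe sets only, with background at the 90th percentile and with no demand on background, which made 1 keratin that fell. Bright probe sets were those above background in at least 1 array, and for KRT222 most were above it in HCT116-WT only. The median of the keratins was -0.069 after quantile normalization, beside -0.066 over all genes, so its sign is not settled. It was 0.22 with levels below background set to background, which is by construction the distance between the backgrounds, and KRT4 was then at 0.18 and KRT20, KRT23 and KRT222 at 0.22. KRT20 was at 0.38 with the even-numbered probe sets and KRT222 at -0.44 with shared probe sets kept. Over all genes, 221 rose with the 99th percentile, 921 rose and 292 fell with a threshold of 0.58, and 270 rose and 31 fell with a threshold of 1.5. Of 224 gene differences recomputed, 3 moved by at least the spread over probe sets. The other 221 include those of KRT6C, which has 1 probe set and so no spread. KRT19 reached 0.72 with shared probe sets kept. Of the desmosome and linker genes, 0 rose with the even-numbered probe sets, with the 99th percentile and with a threshold of 1.5. Of the hemidesmosome genes, 1 rose with bright probe sets only, with the 99th percentile and with levels set to background, and 0 with a threshold of 1.5. Of the blood markers, 0 rose with shared probe sets kept, with the 99th percentile, with levels set to background and with a threshold of 1.5. Of the mesenchyme markers, 2 rose with quantile normalization, with the odd-numbered probe sets, with the 99th percentile, with levels set to background and with a threshold of 1.5. Of the cornified envelope genes, 1 fell with the mean over probe sets, with bright probe sets only, with the 90th percentile and with no demand on background. Of the transcription factors, 2 fell with median centring, with quantile normalization, with the mean over probe sets and with a threshold of 0.58. With the even-numbered probe sets 0 fell, since MSX2 then had too few probe sets to be called. Of the colon epithelium markers, 2 rose with a threshold of 0.58. No paired analysis was possible because each line had 1 array. Culture, array and line cannot be told apart.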
